A study of Mus musculus with 21 samples.

Results

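Apoptosis effectors and inhibitors were followed in cerebella and cultured granule cells of mice lacking cystatin B (Cstb), an inhibitor of lysosomal cysteine proteases. The members were 37 genes of programmed cell death, listed by symbol. A probe set, the group of short probes that an array uses for 1 transcript, was taken where the array annotation gave it 1 of these symbols alone. This yielded 89 of the 45037 probe sets tested, for 35 of the 37 genes. The genes Bax and Ripk1 matched no such probe set and were not analysed here.

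In apoptosis, BH3-only proteins sense damage and release the pore formers of the mitochondrial outer membrane from their antiapoptotic relatives of the Bcl2 family. Cytochrome c then leaves the mitochondria, binds Apaf1 and activates caspase 9 in the apoptosome, and inhibitor proteins such as Xiap hold the downstream caspases in check. Death receptors reach the caspases from the cell surface through Fadd and caspase 8, and inflammatory caspases serve the inflammasome. In the developing cerebellum this machinery removes surplus granule neurons, and mice lacking cystatin B are known to lose such neurons by apoptosis.

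The Cstb-/- mice carried the Cstb tm1Rm null allele in every cell, with 129SvJ as the labelled strain, and wild type littermates served as controls. The arrays held whole cerebella of 4 Cstb-/- and 4 wild type mice at postnatal day 7 (P7), when the mice had no symptoms, and of 3 Cstb-/- and 3 wild type mice at P30, when they had myoclonus. The other experiment used granule cells dissociated from P5 cerebella and kept for 2 days in vitro, with 3 Cstb-/- and 4 wild type arrays. The culture medium of both genotypes held an inhibitor of cell division. The deposited log2 values had been centred on the median of each probe set within an experiment. They keep differences between arrays but no levels, so the presence of a transcript or of a cell type cannot be read from them. All values below are log2 values minus the wild type mean of the same experiment, and each difference is the Cstb-/- mean minus the wild type mean.

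Both Cstb probe sets were low on every knockout array, with differences of -3.10 and -2.31 at P7, -2.70 and -2.77 at P30, and -2.08 and -1.86 in the cultures. The SD over all probe sets was 0.12 to 0.17 on 6 of the 8 P7 arrays, but 0.23 on knockout array 5 and 0.22 on wild type array 3. These 2 arrays are also the only female knockout and the only male wild type array at P7 by their labels. Knockout array 1 of P30 carried a female label and did not part from the other arrays in Xist or the Y-linked Eif2s3y. In the cultures, knockout array 1 was labelled male and had an Eif2s3y value of -2.43, whereas knockout array 2 was labelled female and had 1.68. Culture wild type array 7, labelled male, was high in both Eif2s3y (0.83) and a probe set of Xist (1.17). The labelled sex of the cultures is therefore not a dependable covariate. In the cultures, 51.3% of all probe sets and 48 of the 89 member probe sets had arrays with tied values, which bears on the variance estimates there.

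No member probe set passed the test in the cerebella, and 1 rose in the cultures. A change was called at a fold of 1.3 or more with an adjusted p (limma, Benjamini-Hochberg over all 45037 probe sets) under 0.05 in cerebella and under 0.01 in cultures. At P7, 0 of 89 member probe sets were called, against 3 of all probe sets (0.00666%). At P30, 0 of 89 were called, against 65 of all (0.144%). The test of the methods, corrected over all probe sets, called 0 members at either age. It called only 1 of all probe sets at each age (0.00222%), so this count says little about the members. In the cultures 1 of 89 was called, Casp6, against 1144 of all (2.54%), so the share among the members was not above that of the whole array. With the cerebellar threshold of 0.05, 4 of 89 were called in the cultures (Casp6, Casp8, Aifm1 and Mcl1), against 9.05% of all.

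At an unadjusted limma p under 0.05, 6 of 89 member probe sets differed at P7 (1 higher and 5 lower, 6.74%), against 9.45% of all. At P30 there were 6 (5 higher and 1 lower), against 7.72% of all, and in the cultures 23 (18 higher and 5 lower, 25.8%), against 31.6% of all. Genotypes did not overlap in 2 probe sets higher and 4 lower at P7, where the shares of all probe sets were 2.8% and 2.84%. At P30 they did not overlap in 10 higher (11.2%) and 1 lower, against 6.24% and 6.25% of all. In the cultures they did not overlap in 14 higher (15.7%) and 4 lower (4.49%), against 13.4% and 9.33% of all. The median difference over the members was -0.01 at P7, 0.05 at P30 and 0.06 in the cultures, beside medians over all probe sets of 0.01, -0.01 and -0.02. The mean over the members lay between 0.03 and 0.06 on the P30 knockout arrays, against -0.02 to 0.02 on the wild type arrays. In the cultures it lay between 0.04 and 0.11 on knockout arrays, against -0.03 to 0.02 on wild type arrays. The shift was thus small but on the same side on every knockout array of P30 and of the cultures. The mean over all probe sets lay between 0.003 and 0.035 on culture knockout arrays, against -0.007 to 0.006 on wild type arrays. On P30 knockout arrays it lay between -0.005 and -0.002, against -0.005 to 0.003 on wild type arrays.

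**Figure D1:**
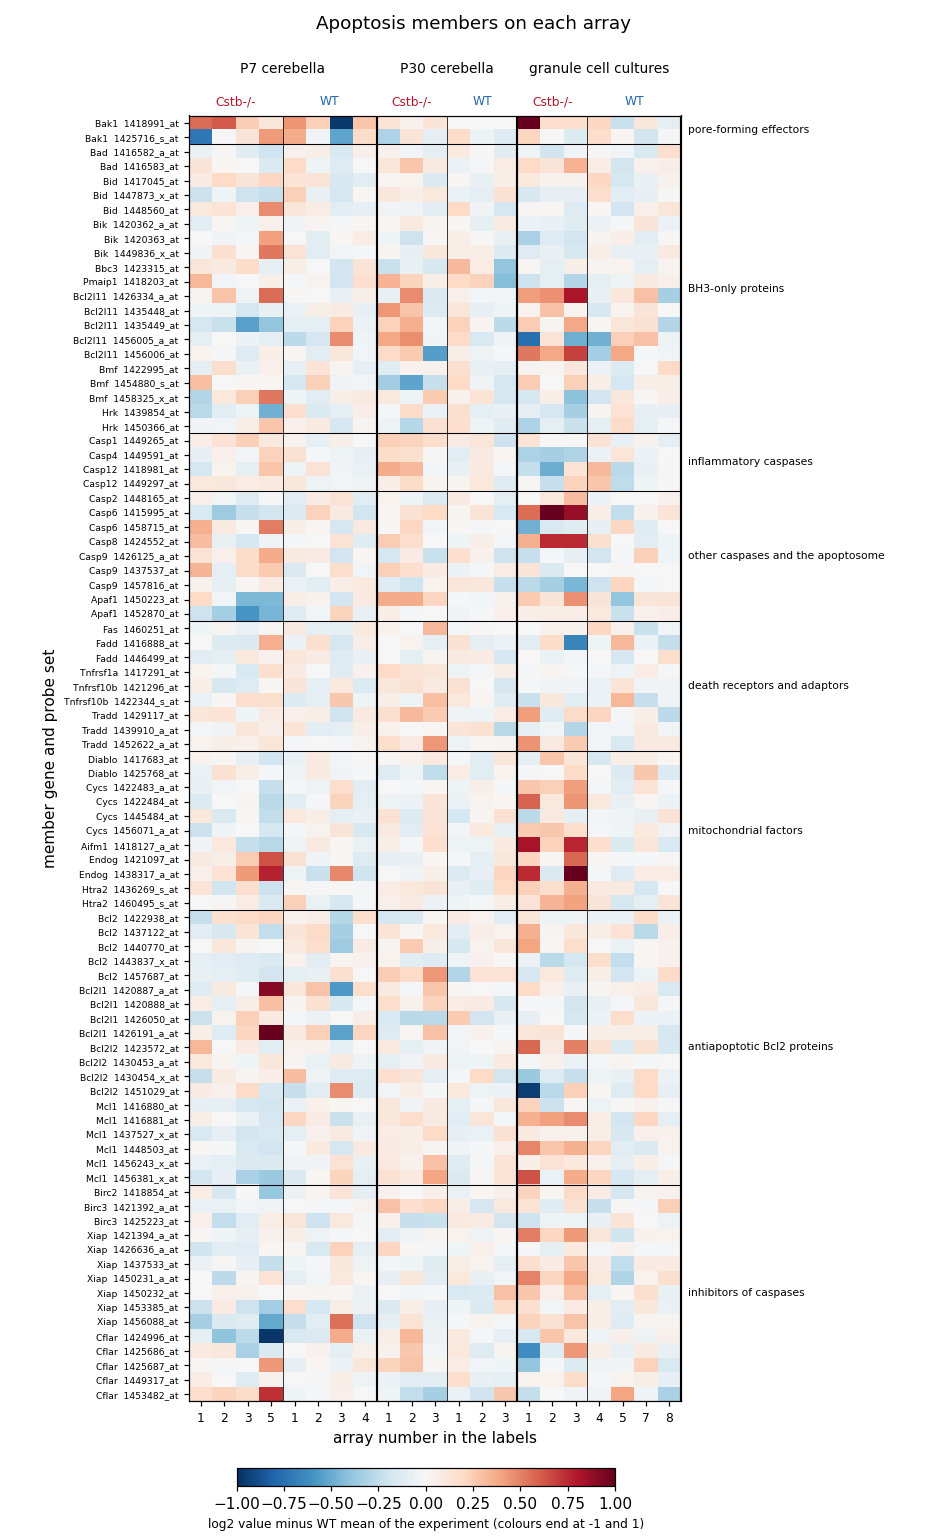
Log2 value of each of the 89 member probe sets (rows, grouped by role) on each of the 21 arrays (columns), minus the wild type mean of that experiment, with Cstb-/- arrays left of WT arrays. Most of the strongest colours at P7 sit on knockout array 5 and wild type array 3, and Casp6 and Casp8 stand out on the culture knockout arrays.

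**Figure D2:**
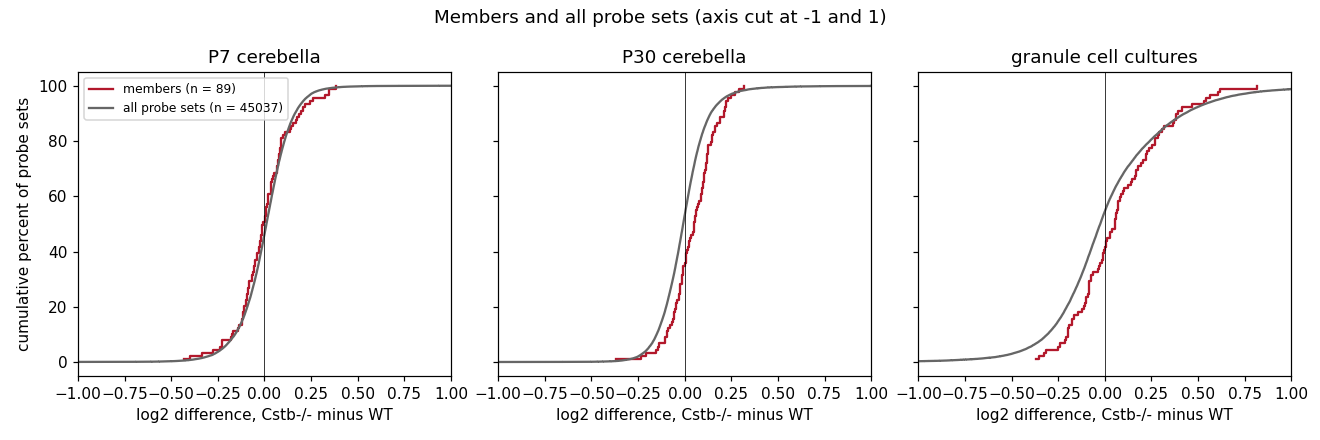
Cumulative percent of probe sets (vertical axis) up to a given log2 difference, Cstb-/- minus WT (horizontal axis, cut at -1 and 1), for the 89 members and for all 45037 probe sets. Both curves lie close together in each experiment, with member medians of -0.01, 0.05 and 0.06 at P7, at P30 and in the cultures.

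Bak1, which forms pores in the mitochondrial outer membrane, was the 1 pore former measured, by 2 probe sets. In the cultures its probe set 1418991_at read 1.06, 0.18 and 0.17 on knockout arrays, against 0.21, -0.22, 0.11 and -0.10 on wild type arrays (difference 0.47 ± 0.22 SE, adjusted p = 0.18). Knockout array 1 alone lay far above the wild type range. At P7 the same probe set read 0.56, 0.62, 0.24 and 0.12 on knockout arrays, against 0.44, 0.24, -0.96 and 0.28 on wild type arrays. That difference of 0.38 came from wild type array 3, and the genotypes overlapped. At P30 the values were 0.14, 0.05 and 0.13 on knockout arrays, against 0.01, -0.00 and -0.01 on wild type arrays. The groups did not overlap, but their means differed by only 0.11. The second probe set, 1425716_s_at, differed by -0.04, -0.09 and 0.03 in the 3 experiments.

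The 8 BH3-only genes were measured by 20 probe sets, of which none was called in any experiment. Their median difference was 0.04 at P7, 0.03 at P30 and -0.06 in the cultures. Bcl2l11 encodes Bim, which binds the antiapoptotic Bcl2 proteins and is a known trigger of death in cultured cerebellar granule neurons. Its probe set 1426334_a_at read 0.42, 0.46 and 0.82 on culture knockout arrays, against -0.08, 0.12, 0.29 and -0.33 on wild type arrays. The groups did not overlap, but the difference of 0.56 ± 0.16 SE had an adjusted p of 0.061. A second Bim probe set, 1456006_at, lay 0.53 higher (adjusted p = 0.069), whereas 1456005_a_at lay 0.37 lower, with a difference of -0.37 and knockout values of -0.75, 0.13 and -0.49. The 5 probe sets of this gene did not go 1 way.

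At P7, Bim probe set 1435449_at read -0.17, -0.22, -0.54 and -0.40 on knockout arrays, against -0.09, -0.09, 0.23 and -0.06 on wild type arrays. Every knockout array was below every wild type array, with a difference of -0.33 ± 0.10 SE (adjusted p = 0.41). The difference for this probe set was higher by 0.55 ± 0.18 SE in the cultures than in P7 cerebella (adjusted p = 0.037). At P30, Bmf, whose protein is tied to the cytoskeleton, had the largest difference of the group. Its probe set 1454880_s_at read -0.35, -0.53 and -0.23 on knockout arrays, against 0.20, -0.03 and -0.17 on wild type arrays (-0.37 ± 0.11 SE, adjusted p = 0.49). The other 2 Bmf probe sets differed by -0.01 and 0.11 at P30. Among the p53-inducible members, Bbc3 (Puma) differed by 0.08 at P7, -0.15 at P30 and -0.01 in the cultures, and Pmaip1 (Noxa) by 0.09, 0.21 and -0.20. Bad, Bid, Bik and Hrk ranged from -0.23 to 0.23 over all experiments.

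**Figure D3:**
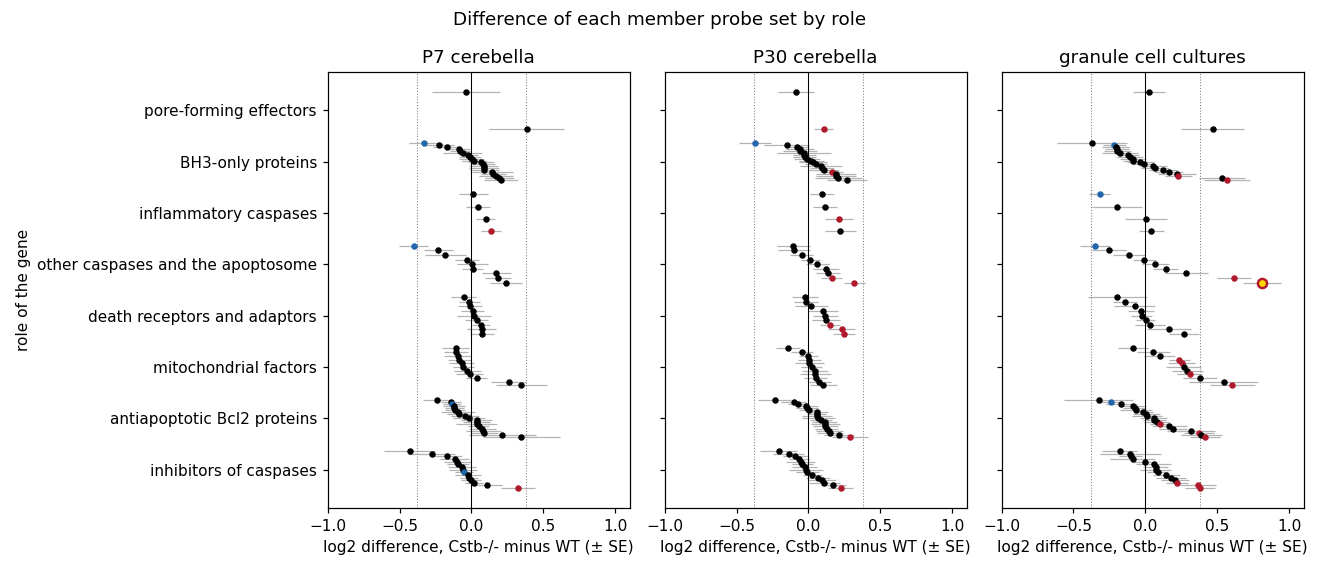
Log2 difference, Cstb-/- minus WT (horizontal axis), of each member probe set with its SE, by role of the gene (vertical axis) and experiment. Red and blue points are probe sets whose knockout arrays were all above or all below the wild type arrays, the point filled in yellow is Casp6 (called), and dotted lines mark a fold of 1.3.

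The 4 antiapoptotic Bcl2 genes, whose proteins keep the pore formers inactive, had 19 probe sets and no call. Mcl1, a short-lived protein of this group, had 6 probe sets. All 6 lay below wild type at P7, with differences between -0.24 and -0.04, and all 6 lay above it at P30 (0.06 to 0.22) and in the cultures (0.01 to 0.41). Probe sets of 1 gene can share transcripts and probes and are not separate measurements. In the cultures 1416881_at read 0.36, 0.41 and 0.47 on knockout arrays, against 0.07, -0.19, 0.20 and -0.09 on wild type arrays. The genotypes were apart and the difference was 0.41 ± 0.10 SE, with an adjusted p of 0.041 that passes the threshold used for cerebella but not that for cultures. Mcl1 probe set 1448503_at read 0.49, 0.28 and 0.35 on knockout arrays, against 0.21, -0.11, -0.14 and 0.04 on wild type arrays (adjusted p = 0.059).

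The difference was higher in the cultures than in P7 cerebella for 3 Mcl1 probe sets, by 0.45, 0.46 and 0.56 (adjusted p = 0.024, 0.012 and 0.039). Bcl2l1, which encodes Bcl-xL, had differences between 0.04 and 0.35 over its 4 probe sets at P7. Its probe set 1426191_a_at read 0.07, -0.13, 0.22 and 1.23 on knockout arrays, against 0.09, 0.23, -0.54 and 0.21 on wild type arrays. The high value belonged to knockout array 5 and the low value to wild type array 3, and the difference was -0.13 without both of them. In the cultures Bcl2l1 lay between -0.08 and 0.08. Bcl2 itself was highest in 1457687_at at P30, with 0.25, 0.19 and 0.43 on knockout arrays, against -0.29, 0.15 and 0.14 on wild type arrays (0.29 ± 0.13 SE, adjusted p = 0.64). The genotypes were apart, but the difference was 0.14 without wild type array 1, the lowest array. Its other 4 probe sets ranged from -0.10 to 0.12 at that age. Bcl2l2 (Bcl-w) had 1 probe set higher by 0.39 in the cultures (adjusted p = 0.11) and another lower by 0.32, a difference of -0.32 with knockout values of -0.95, -0.27 and 0.24.

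The mitochondrial factors, which act once they leave the mitochondria, were the role group with the highest median difference in the cultures. The median over their 11 probe sets was 0.27, and 10 of 11 lay above 0, while at P7 the median was -0.06 and at P30 0.02. None was called in any experiment. Aifm1, an X-linked flavoprotein of the mitochondrial respiratory machinery that can move to the nucleus in dying cells, read 0.82, 0.23 and 0.76 on culture knockout arrays, against 0.17, -0.14, 0.12 and -0.15 on wild type arrays. The arrays did not overlap, although knockout array 2 lay just above the wild type range. The difference was 0.61 ± 0.16 SE (adjusted p = 0.047). With any 1 of the 7 arrays left out it lay between 0.50 and 0.79, with an adjusted p between 0.0066 and 0.17. The highest value came without knockout array 2, where Aifm1 was called. The Aifm1 difference was higher in the cultures than in P7 cerebella by 0.72 ± 0.17 SE (adjusted p = 0.0052).

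Cycs encodes somatic cytochrome c, the partner of Apaf1. In the cultures its probe set 1422483_a_at read 0.27, 0.24 and 0.42 on knockout arrays, against -0.02, -0.11, 0.14 and -0.01 on wild type arrays (0.31 ± 0.09 SE, adjusted p = 0.057). The genotypes were apart, and 1456071_a_at behaved alike with 0.26, 0.27 and 0.17 against -0.01, -0.05, 0.10 and -0.04. At P7 all 4 Cycs probe sets lay slightly below wild type, between -0.11 and -0.07. For 2 of them the difference was higher in the cultures than at P7, by 0.39 and 0.48 (adjusted p = 0.016 and 0.023). Endog, a mitochondrial nuclease, had culture differences of 0.27 and 0.54, and its 1438317_a_at read 0.75, -0.14 and 1.03 on knockout arrays, against -0.01, -0.13, 0.07 and 0.07 on wild type arrays. Knockout array 2 lay at the wild type level here, and without it this probe set was called at 0.89 (adjusted p = 0.0041), as was Cycs 1422484_at at 0.52 (adjusted p = 0.0098). Without that array 3.37% of the member probe sets were called, against 5.96% of all. At P7 this Endog probe set read 0.05, 0.15, 0.42 and 0.77 on knockout arrays, against -0.05, -0.22, 0.48 and -0.20 on wild type arrays (0.35 ± 0.18 SE), and the groups overlapped. Htra2, a protease that binds inhibitors of apoptosis, had culture differences of 0.25 and 0.29 (adjusted p = 0.11 for both). Diablo, which also binds those inhibitors, stayed between -0.14 and 0.10 in all experiments, with its lowest value at P30 in 1425768_at (-0.13, -0.05 and -0.25 on knockout arrays, against 0.07, -0.11 and 0.03 on wild type arrays).

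The initiator and effector caspases with Apaf1 were measured by 9 probe sets, and this group held the 1 call. Casp6, an effector caspase known to act in axon degeneration, lies on chromosome 3 at chr3:129901415-129914112 (GRCm38.p6). Its probe set 1415995_at read 0.56, 1.01 and 0.87 on culture knockout arrays, against 0.06, -0.24, 0.05 and 0.13 on wild type arrays. All knockout arrays were far above all wild type arrays. Casp6 rose by 0.81 ± 0.13 SE (1.76-fold, 95% interval 0.51 to 1.11 on the log2 scale, adjusted p = 0.0091). The difference stayed between 0.72 and 0.94 when any 1 of the 7 arrays was left out, but its adjusted p was then between 0.011 and 0.048 and missed the threshold of 0.01 each time. The second Casp6 probe set, 1458715_at, went the other way, with -0.48, -0.15 and -0.12 on knockout arrays, against -0.09, 0.21, -0.12 and -0.00 on wild type arrays (-0.25 ± 0.12 SE, adjusted p = 0.18).

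At P7, Casp6 1415995_at read -0.15, -0.36, -0.23 and -0.18 on knockout arrays, against -0.13, 0.23, 0.09 and -0.19 on wild type arrays (-0.23 ± 0.10 SE, adjusted p = 0.52). At P30 it differed by 0.12 (adjusted p = 0.79). The difference was higher in the cultures by 1.04 ± 0.16 SE than in P7 cerebella (adjusted p = 0.00013) and by 0.69 ± 0.17 SE than in P30 cerebella (adjusted p = 0.021). The second probe set gave -0.49 ± 0.16 SE for the cultures minus P7 (adjusted p = 0.031), so both probe sets of the gene differed between these experiments, in opposite directions.

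Casp8, the initiator caspase of the death receptors, lies on chromosome 1 at chr1:58795233-58847503 and had 1 probe set, 1424552_at. In the cultures it read 0.35, 0.74 and 0.75 on knockout arrays, against 0.16, -0.00, -0.11 and -0.05 on wild type arrays. The genotypes were apart, with a difference of 0.62 ± 0.12 SE (1.53-fold, adjusted p = 0.017), which missed the threshold for cultures. It was called in 1 fit over all groups (adjusted p = 0.00043), with array weights (adjusted p = 0.0063) and without the probe sets that had tied arrays (adjusted p = 0.0078). In P7 cerebella it differed by 0.01 and in P30 cerebella by 0.14. The difference was higher in the cultures than at P7 by 0.61 ± 0.15 SE (adjusted p = 0.0083), and than at P30 by 0.48 ± 0.16 SE (adjusted p = 0.10).

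To show what lies before these 2 caspases, and before Casp4 described below, which had the lowest adjusted p among the members that were lower in the cultures, their promoters follow (RefSeq, GRCm38.p6, plus strand, 250 bases before to 50 after a listed start site). The GC box GGGCGG, a site bound by Sp1, and matches to the NF-kappaB consensus are in capitals, searched on both strands.
Casp6, chr3:129901165-129901464: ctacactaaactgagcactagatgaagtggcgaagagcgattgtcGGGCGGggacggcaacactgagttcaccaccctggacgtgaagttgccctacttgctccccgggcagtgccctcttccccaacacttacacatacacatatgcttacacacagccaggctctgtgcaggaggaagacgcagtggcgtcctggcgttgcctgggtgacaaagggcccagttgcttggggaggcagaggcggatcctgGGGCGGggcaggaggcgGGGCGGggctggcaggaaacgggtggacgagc
Casp8, chr1:58802252-58802551: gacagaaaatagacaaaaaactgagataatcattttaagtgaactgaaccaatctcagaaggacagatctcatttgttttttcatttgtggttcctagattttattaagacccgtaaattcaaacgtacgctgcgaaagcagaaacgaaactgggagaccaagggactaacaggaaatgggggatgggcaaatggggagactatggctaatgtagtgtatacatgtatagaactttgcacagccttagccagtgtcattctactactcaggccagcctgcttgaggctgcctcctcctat
Casp4, chr9:5308599-5308898: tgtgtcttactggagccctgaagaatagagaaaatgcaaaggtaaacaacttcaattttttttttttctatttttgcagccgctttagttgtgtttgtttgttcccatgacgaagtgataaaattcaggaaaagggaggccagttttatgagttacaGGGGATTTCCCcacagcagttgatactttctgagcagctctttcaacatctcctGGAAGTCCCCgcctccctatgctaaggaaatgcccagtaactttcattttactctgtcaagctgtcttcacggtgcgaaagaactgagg
The Casp6 promoter held 3 GC boxes and 62% G and C, against a median of 52.7% over all 32851 promoters. The Casp8 start site listed lies inside the gene interval given above, and its promoter held neither motif and 42% G and C. The Casp4 promoter, the first of 2 listed, held 3 matches to the NF-kappaB consensus, of which 2 overlap. A GC box occurred in 35.7% of all promoters and in 27 of 45 promoters of member genes, and an NF-kappaB match in 8.46% of all and in 8 of 45. The arrays measured no binding at these sequences.

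Apaf1, the scaffold of the apoptosome, had its lowest value at P7 and its highest at P30, in different probe sets. At P7, 1452870_at read -0.21, -0.34, -0.59 and -0.47 on knockout arrays, against -0.13, -0.02, 0.22 and -0.07 on wild type arrays. Every knockout array was lower, with a difference of -0.40 ± 0.10 SE and an adjusted p of 0.33, the smallest of the members at P7. At P30, 1450223_at read 0.37, 0.37 and 0.21 on knockout arrays, against -0.02, -0.03 and 0.04 on wild type arrays (0.32 ± 0.07 SE, adjusted p = 0.31, the smallest of the members at P30). These groups were apart as well. At P30 1452870_at differed by 0.01, and at P7 1450223_at by -0.18. For 1452870_at the difference was higher in the cultures than at P7 by 0.47 ± 0.13 SE (adjusted p = 0.015). Casp9, the caspase that Apaf1 activates, had 3 probe sets between 0.01 and 0.19 at P7 and between -0.35 and -0.01 in the cultures. Its lowest, 1457816_at, read -0.27, -0.33 and -0.46 on culture knockout arrays, against -0.21, 0.22, -0.02 and 0.01 on wild type arrays (adjusted p = 0.072). Casp2, another initiator caspase, differed by -0.03, -0.05 and 0.14.

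**Figure D4:**
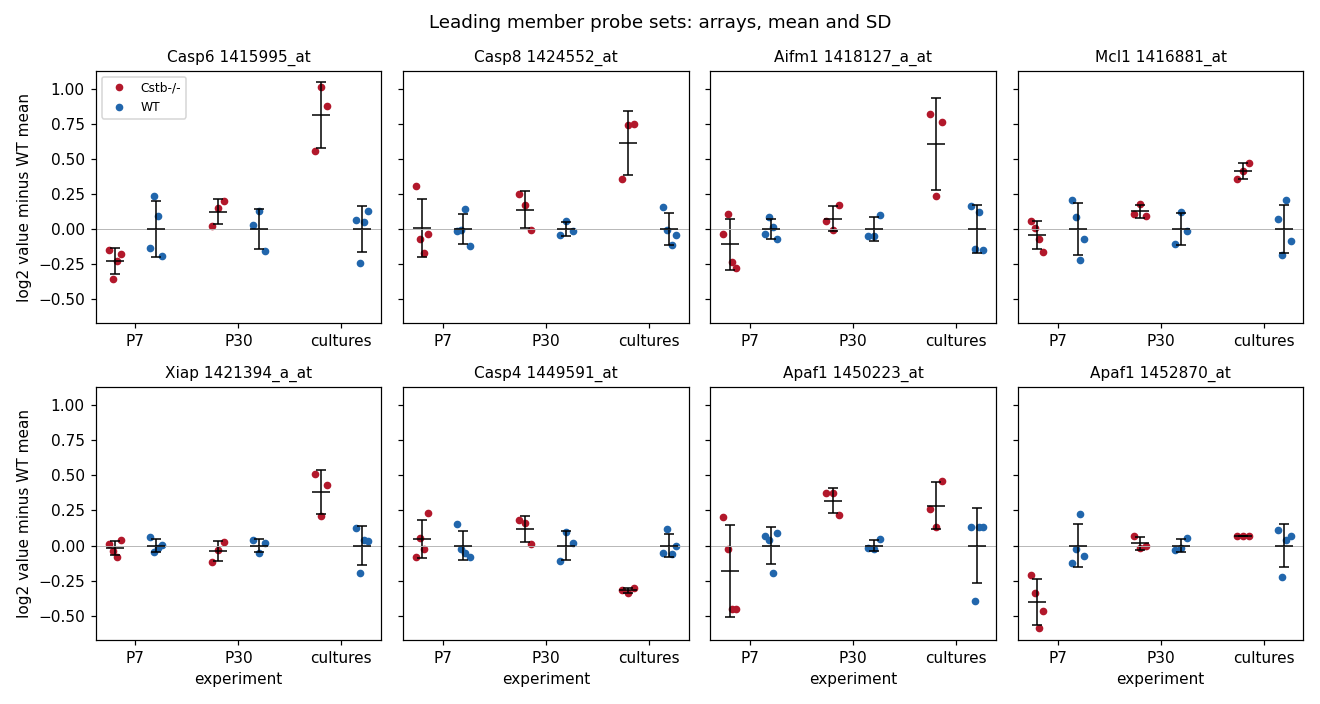
Log2 value minus the wild type mean (vertical axis) for 8 member probe sets on each array, by experiment, with Cstb-/- arrays left of WT arrays and bars for mean and SD. In the cultures all 3 knockout arrays of Casp6 lie between 0.56 and 1.01 and those of Casp4 between -0.34 and -0.30, apart from the wild type arrays.

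The inflammatory caspases were read by 4 probe sets. Casp4, the mouse sensor of intracellular lipopolysaccharide also called caspase 11, read -0.32, -0.34 and -0.30 on culture knockout arrays, against -0.06, 0.12, -0.06 and -0.00 on wild type arrays. The knockout arrays lay close together and below all wild type arrays, with a difference of -0.32 ± 0.07 SE (adjusted p = 0.033). Its fold of 1.25 is under 1.3, so it was not called at either threshold of p. In P30 cerebella Casp4 differed by 0.12, and the difference was lower in the cultures than at P30, by -0.43 ± 0.12 SE (adjusted p = 0.042). In the cerebella all 4 probe sets lay above 0 at both ages, with medians of 0.07 at P7 and 0.16 at P30. Casp1, the caspase that matures interleukin 1 beta, read 0.07, 0.14, 0.24 and 0.10 on P7 knockout arrays, against 0.03, -0.08, 0.06 and -0.01 on wild type arrays. At P30 it read 0.24, 0.22 and 0.18 on knockout arrays, against 0.08, 0.12 and -0.21 on wild type arrays (0.21 ± 0.10 SE, adjusted p = 0.65). The genotypes did not overlap at either age, but the differences were under 1.3-fold. Casp12, a caspase of the endoplasmic reticulum in mice, was highest in 1418981_at at P30, with 0.37, 0.33 and -0.03 on knockout arrays, against -0.07, 0.09 and -0.02 on wild type arrays (adjusted p = 0.69).

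The death receptors and adaptors had 9 probe sets and no call. Tradd, the adaptor of the TNF receptor, had the largest difference of the group in each experiment. At P30 its 1429117_at read 0.16, 0.32 and 0.26 on knockout arrays, against -0.03, -0.04 and 0.07 on wild type arrays (0.25 ± 0.08 SE, adjusted p = 0.50). In the cultures 1452622_a_at read 0.45, 0.09 and 0.26 on knockout arrays, against -0.03, -0.15, 0.09 and 0.09 on wild type arrays (0.27 ± 0.11 SE, adjusted p = 0.13). The genotypes were apart at P30 but met in the cultures. At P7 1429117_at differed by 0.07 with overlapping arrays. Tnfrsf1a, the TNF receptor itself, was also apart at P30, at 0.19, 0.14 and 0.12 on knockout arrays, against -0.05, -0.02 and 0.06 on wild type arrays, but read only 0.01 at P7 and 0.00 in the cultures. Over the group, 7 of 9 probe sets lay above 0 at P30 (median 0.12), 6 of 9 at P7 (0.02) and 4 of 9 in the cultures (-0.03). Fas, Fadd and the TRAIL receptor Tnfrsf10b ranged from -0.20 to 0.12 over all experiments.

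The inhibitors of caspases had 15 probe sets, none called. Xiap, an X-linked protein that blocks effector caspases and caspase 9, had 7 of them. In the cultures 6 of the 7 lay above 0, up to 0.38, while 6 of 7 lay below 0 at P7 and at P30. Probe set 1421394_a_at read 0.51, 0.21 and 0.43 on culture knockout arrays, against 0.12, -0.20, 0.04 and 0.03 on wild type arrays. The genotypes were apart, with a difference of 0.38 ± 0.11 SE (adjusted p = 0.057, and 0.0017 in 1 fit over all groups, where it was called). The difference was higher in the cultures than at P7 by 0.40 ± 0.11 SE (adjusted p = 0.015) and than at P30 by 0.42 ± 0.12 SE (adjusted p = 0.040). Xiap 1450231_a_at read 0.49, 0.21 and 0.39 on knockout arrays, against 0.10, -0.30, 0.04 and 0.16 on wild type arrays (adjusted p = 0.093).

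Cflar encodes the inhibitor of caspase 8 known as c-FLIP, and 2 of its 5 probe sets stood out at P7, in opposite directions. Probe set 1424996_at read -0.09, -0.40, -0.26 and -0.97 on knockout arrays, against -0.16, -0.15, 0.37 and -0.07 on wild type arrays (-0.43 ± 0.18 SE, adjusted p = 0.50). Probe set 1453482_at read 0.17, 0.22, 0.18 and 0.73 on knockout arrays, against -0.04, -0.01, 0.05 and 0.01 on wild type arrays (0.33 ± 0.12 SE, adjusted p = 0.45). In both, knockout array 5 was the farthest from wild type, and the genotypes were apart in the second alone. Birc2 and Birc3 encode the ubiquitin ligases cIAP1 and cIAP2 of the TNF receptor complex. Birc3 1421392_a_at read 0.30, 0.17 and 0.21 on P30 knockout arrays, against 0.07, -0.17 and 0.10 on wild type arrays (0.22 ± 0.09 SE, adjusted p = 0.61). Its second probe set read lower at P30, by -0.14, and Birc2 differed by -0.11, 0.03 and 0.15.

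Set against each other, the 3 experiments gave 12 member probe sets (13.5%) of 8 genes whose difference in the cultures was not that of P7 cerebella, 11 of them higher and 1 lower. The same fit called 18.7% of all probe sets, so the members' share was below that of the array. Between cultures and P30 cerebella 3 member probe sets were called (3.37%), against 5.04% of all. Between P30 and P7 cerebella 0 of 89 were called, against 0.124% of all. At an unadjusted p under 0.05 there were 12 members (13.5%), against 7.78% of all, and the smallest adjusted p among the members was 0.43. The comparisons with the cultures share the culture arrays, and the fit used 1 variance per probe set for all experiments.

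Of 75 further genes of the same pathways, 65 matched 142 probe sets. In the cultures 9 probe sets of 6 of these genes were called higher and none lower, which is 6.34% of the list against 2.54% of all probe sets called (933 higher and 211 lower). At an unadjusted limma p under 0.05, 45 were higher and 11 lower (39.4%), against 31.6% of all. The lowest difference in the list was -0.93. The median was 0.09 over the list and -0.02 over all probe sets. Birc5, which encodes survivin and is an inhibitor of apoptosis that also serves mitosis, rose by 1.94 ± 0.15 SE (adjusted p = 0.00034). Its knockout values lay between 1.69 and 2.14, against -0.20 to 0.32 in wild type. Gsn, an actin-severing protein cut by caspases, rose in 3 probe sets by 0.98 to 1.31. The p53 targets Ccng1 (0.74 and 0.83), Eda2r (0.81) and Aen (0.91) rose as well, as did Bag1 (0.61), whose protein binds Bcl2. At P30 only Pycard, the adaptor of the inflammasome, rose, by 0.88 ± 0.10 SE (adjusted p = 0.014), which makes 1 of 142 probe sets (0.704%), against 0.144% of all. Its knockout values lay between 0.80 and 0.94, against -0.16 to 0.21 in wild type. At P7 no gene of these lists was called, and 14 of 142 probe sets (9.86%) had an unadjusted p under 0.05, against 9.45% of all.

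Markers of several cell types moved with genotype beside these results. In the cultures, 12 of 15 probe sets for dividing cells rose (median 1.48), and the list's mean lay between 1.27 and 1.37 on knockout arrays, against -0.13 to 0.09 on wild type arrays. Of 21 probe sets for fibroblasts of the meninges, 14 rose (median 1.53), with list means of 1.42 to 1.47 on knockout arrays, against -0.08 to 0.11 on wild type arrays. Of 28 astrocyte probe sets 6 were called higher, all of Gja1 or Aldh1l1. The median over the astrocyte list was 0.44, with 24 probe sets above 0 and 4 below. Its list means were 0.42 to 0.59 on knockout arrays, against -0.11 to 0.22 on wild type arrays. Of 13 probe sets for vessels and pericytes 2 rose, Acta2 by 2.25 and Pdgfrb by 1.97, with list means of 0.23 to 0.30 on knockout arrays, against -0.04 to 0.05 on wild type arrays. The median over this list was -0.06, and 8 of its 13 probe sets lay below 0. Of 23 probe sets for granule neurons 1 fell, of Fat2, and of 20 for Purkinje cells 1 fell, of Rora (-1.17). The median over the granule neuron list was 0.07, with 15 of 23 probe sets above 0. The Purkinje cell probe sets ranged from -1.17 to 1.15, with 10 above and 10 below 0. At P30, 10 of 18 microglial probe sets rose (median 0.63), with list means of 0.87 to 1.08 on knockout arrays, against -0.13 to 0.12 on wild type arrays, and 3 Gfap probe sets of astrocytes rose by 1.75 to 2.36. At P7 the median over the list was -2.08 for the choroid plexus and 0.50 for oligodendrocytes, and no probe set of either was called. The choroid plexus list mean was -0.29 on P7 knockout array 1. It was -2.25, -3.15 and -3.07 on knockout arrays 2, 3 and 5, against -0.22 to 0.14 on wild type arrays. At P30 the choroid plexus median was -1.07, again with no call. Its list mean was -3.35 and -3.15 on knockout arrays 1 and 3 but 0.64 on knockout array 2, against -0.63 to 0.62 on wild type arrays. The part of these cells in the members' values was not tested. In whole tissue and in mixed cultures, a change in the number of cells of 1 type and a change of RNA per cell cannot be told apart.

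**Figure D5:**
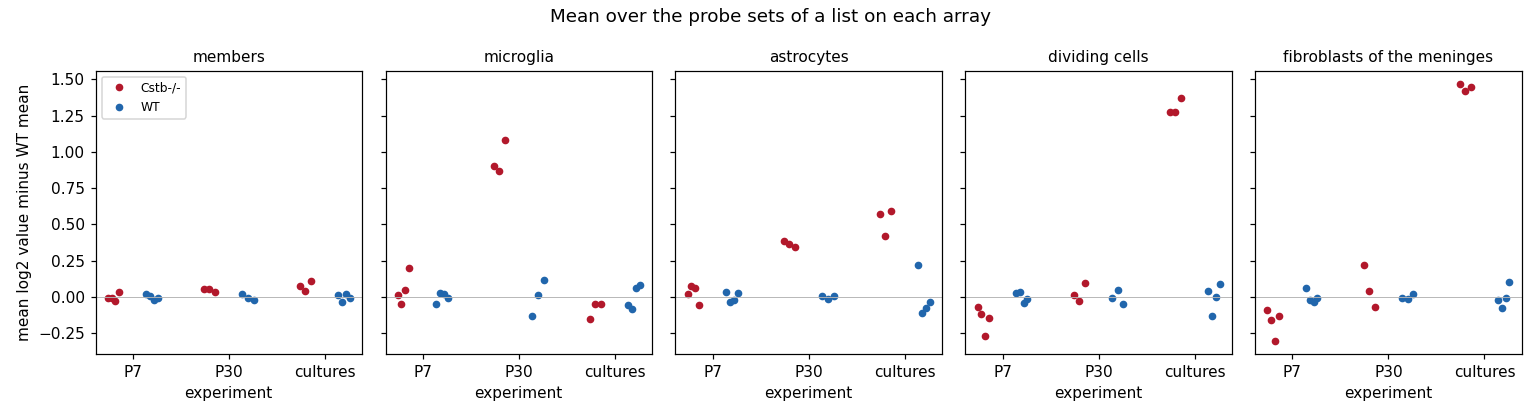
Mean over the probe sets of a list on each array, as log2 value minus the wild type mean (vertical axis), by experiment (horizontal axis), with Cstb-/- arrays left of WT arrays. The members stay within -0.03 and 0.11, while dividing cell and meningeal fibroblast markers reach 1.27 to 1.47 on the culture knockout arrays and microglial markers 0.87 to 1.08 at P30.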

How the data were processed

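RNA of Cstb-/- and wild type cerebella (P7 and P30) and granule cell cultures was measured on 21 Affymetrix mouse arrays. The deposited values are log2 signals: the authors ran RMA on the scans (background adjustment, quantile normalization, summary per probe set) and then took off each probe set's median, found here to be 0 in every experiment. Their software version is not given in the sources used here. Because levels are lost, the low-expression filter of the methods was not applied, and signal over background is unknown. Precision is set by the number of arrays, and p-values measure the spread between these samples only.

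Of 45101 probe sets, 64 controls were left out. The annotation gave 34945 probe sets 1 symbol, 932 several and 9160 none. Knockout was compared with wild type within each experiment by limma 3.58.1 in R 4.3.3 (lmFit, eBayes, 2-sided, Benjamini-Hochberg over 45037), with a fold of 1.3 and the adjusted p of the methods as thresholds. Differences between experiments came from 1 fit over all 6 groups, at an adjusted p under 0.05 and a fold of 1.3. That fit takes 1 variance per probe set from cerebella and cultures together, so its p-values do not allow for unequal spread between them. For knockout minus wild type in the cultures it called 5725 of all probe sets, against 1144 with the cultures fitted alone. The test was tried on simulated data. Python 3.11.15, pandas 2.3.3, numpy 2.4.6, SciPy 1.17.1 and matplotlib 3.10.9 were used for tables and figures.

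The members and lists were chosen with earlier results of these data known. Named were the probe sets called, those with a fold of 1.3 and no overlap of genotypes, and the largest difference of each role and experiment. Other members named were picked after their values were seen. Alternatives comprised the methods' t-test, robust variances, array weights, sex as a covariate, a replicate block, other thresholds and left-out arrays. Of the members, 32 genes matched a RefSeq promoter.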

Additional observations from a re-analysis of the deposited data

Results flagged for a closer look

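In P7 cerebella, wild type array 3 stood far from the other 3 wild type arrays in 4 of the 8 named probe sets. Chance flags about 1 group in 20, but that rate does not apply here, since the named probe sets were chosen for large differences and values of this array enter those differences. For Bak1 1418991_at the difference was 0.38 with all arrays and 0.063 without it. Its value was -0.96 for Bak1 1418991_at, 0.23 for Bcl2l11 1435449_at, -0.20 for Tradd 1429117_at and 0.37 for Cflar 1424996_at, each relative to the wild type mean. This array also had a wide spread over all probe sets (SD 0.22). Without it and knockout array 5 together, 0 of 89 member probe sets were called at P7, as with all arrays.

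The difference between knockout and wild type differed between experiments for 13 member probe sets, by limma with correction over all probe sets. The members' share was below that of the array in both comparisons with the cultures. It was 13.5% against 18.7% of all for the cultures minus P7, and 3.37% against 5.04% for the cultures minus P30. In the cultures minus P7 cerebella, the difference was higher for Casp6 1415995_at (1.04), Aifm1 (0.72), Casp8 (0.61), Mcl1 (0.45, 0.46 and 0.56 in 3 probe sets), Bcl2l11 1435449_at (0.55), Cycs (0.39 and 0.48 in 2 probe sets), Apaf1 1452870_at (0.47) and Xiap 1421394_a_at (0.40). It was lower for Casp6 1458715_at (-0.49). In the cultures minus P30 cerebella, it was higher for Casp6 1415995_at (0.69) and Xiap 1421394_a_at (0.42) and lower for Casp4 (-0.43). Dissociation, age and culture cannot be told apart in these contrasts.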

How the results depend on the processing

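The count of member probe sets called stayed 0 at P30 under every alternative run, and 0 at P7 except with the labelled sex as a covariate (5) and with the methods' t-test corrected over probe sets past the fold (1, Apaf1). With sex as a covariate, 5 member probe sets (5.62%) and 1108 of all (2.46%) were called at P7. With that t-test the shares were 1.12% and 0.451%. The 5 called with sex as a covariate were Apaf1 1452870_at, 2 of Bcl2l1, Xiap 1456088_at and Cflar 1424996_at. At P7 the labelled sex goes with Xist and Eif2s3y and is unbalanced between genotypes. It also sets knockout array 5 and wild type array 3, the P7 arrays of widest spread, apart from their groups. Sex and the spread of these 2 arrays cannot be told apart. On P30 knockout array 1 and culture knockout arrays 1 and 2 the labelled sex goes against Xist and Eif2s3y. In the cultures the count of 1 (Casp6) became 0 with sex as a covariate, with the methods' t-test under either correction and with robust variances, 2 with array weights and, chosen after seeing the data, without probe sets with tied arrays, 4 at an adjusted p under 0.05, and 5 in 1 fit over all groups. Where the count rose, the members' share stayed below that of all probe sets. It was 2.25% against 6.28% with array weights and 4.88% against 9.50% without tied probe sets. At an adjusted p under 0.05 it was 4.49% against 9.05%, and in 1 fit over all groups 5.62% against 12.7%. Without single arrays the count was 0 to 3, with 3 without knockout array 2 (3.37%, against 5.96% of all), none of them Casp6. With the mean over each gene's probe sets, 1 of 35 genes was called (2.86%, against 4.56% of all genes), Casp8 and not Casp6.

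The median over the members at P7 was 0.0070 with sex as a covariate, 0.0063 for gene means and -0.022 without knockout array 5 and wild type array 3. Without single arrays it was -0.017 to 0.0024 at P7, 0.029 to 0.049 at P30 and 0.023 to 0.068 in the cultures, where it was 0.11 without tied probe sets. With the replicate number as a block the median at P7 was -0.023 and 0 member probe sets were called at both ages. The numbers did not pair the arrays (correlations of deviations 0.0058 to 0.17 at P7 and -0.18 to -0.034 at P30), and the cultures share no numbers. Bcl2l1 1426191_a_at at P7 turned to -0.13 without knockout array 5 and wild type array 3. Of 432 values of named probe sets under alternatives, 406 kept direction and side of the threshold. Alternatives that change only the test or the threshold keep the log2 difference, so direction could not change there. Among the named values Casp6 in the cultures alone was called at first, so keeping the side mostly meant staying uncalled. The cause of the changes under alternatives was not tested.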
